A study of Homo sapiens with 47 samples.

Results

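The replication-dependent histone genes were described in circulating tumor cells (CTCs) and in cultured cells of 1 breast cancer line. The genes were chosen by symbol, as the protein-coding rows of the deposited table named H1-1 to H1-6, or H2AC, H2BC, H3C or H4C with a number, which gave 52 genes of 25739 rows. These comprised 5 genes of linker histone H1, 12 of H2A, 14 of H2B, 9 of H3 and 12 of H4, with 44 genes on chromosome 6, 7 on chromosome 1 and 1 on chromosome 12. The annotation used here, GENCODE release 44 on GRCh38, holds 69 genes with such symbols, and the other 17 were not analysed here. The 37 CTCs were single cells from the blood of 5 NSG mice, which are immunodeficient hosts, bearing mammary fat pad tumors of MDA-MB-231-LM2 (LM2), a metastatic subline of the human triple-negative breast cancer line MDA-MB-231 labeled with GFP. CTCs were enriched from blood by size, picked one by one by their GFP signal and sequenced with a modified SMARTseq2 protocol. Of the CTCs 2 came from mouse 5541, 4 from mouse 5542, 10 from mouse 5545, 17 from mouse 5546 and 4 from mouse 5549. In addition 6 LM2 cells grown in culture were sequenced. A CTC is named here by its mouse and its library number, as in 5549-6. Cells are not replicates, so CTCs were averaged within each mouse (n = 5) and the culture counted as 1 sample. All cells are of the same tumor line and the labels name no treatment, so that the comparison sets CTCs from mice against the same line in a dish. Fewer messages of a gene and less RNA in the cell cannot be told apart after normalization.

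Replication-dependent histone genes supply the proteins that wrap newly copied DNA, and their messages accumulate in S phase. Unlike other messages they usually end in a short stem-loop, bound by the stem-loop binding protein SLBP, instead of a poly(A) tail. Some of these genes also make a longer message that runs past the stem-loop and carries a poly(A) tail, mostly in cells that do not divide. The labels give polyA RNA as the molecule and the protocol primed reverse transcription with oligo-dT, so that the levels below are of the messages which this primer reached and not of all histone mRNA. Levels are normalized counts, which the authors obtained by scaling the reads of every cell with its size factor.

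A stem-loop with a stem of 6 base pairs and a loop of 4 bases was found after the stop codon in 51 of the 52 genes, 22 to 62 bases from the stop codon. No such sequence was found in the searched stretch of H2AC11. The stem-loops of 5 genes that the values below turn on are shown from 5′ to 3′ as DNA, with the stem and loop in capitals. They were read from the GRCh38 genome, at chr6:26104317-26104332 (plus strand) for H4C3, chr6:26055744-26055759 (minus strand) for H1-2, chr6:26124669-26124684 (plus strand) for H2AC6, chr6:26123472-26123487 (minus strand) for H2BC4 and chr6:27146366-27146381 (minus strand) for H2BC12.
H4C3: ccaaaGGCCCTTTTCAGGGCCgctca
H1-2: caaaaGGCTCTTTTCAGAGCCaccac
H2AC6: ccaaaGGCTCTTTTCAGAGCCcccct
H2BC4: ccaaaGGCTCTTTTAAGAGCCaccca
H2BC12: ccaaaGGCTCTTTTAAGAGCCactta
All 12 H4 genes had a stem that begins with GGCCC, and 0 of the other genes did. The sequence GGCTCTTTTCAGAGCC was the stem-loop of 30 of the 52 genes.

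H4C3 differed from the other histone genes in the bases just before its stem-loop. Within the 20 bases at chr6:26104291-26104310 (GRCh38, plus strand), which lie in the 3′ untranslated part of its single exon and end 6 bases before the stem-loop, 18 were A. The stretch is shown with its neighbors, chr6:26104286-26104315, and the A bases are in capitals.
H4C3: ActtcAAAAAAcAAAAAcAAAAAAAcccAA
In the other 51 genes the 20 bases richest in A, within the coding exon up to the end of the stem-loop, held 7 to 13 A, and in the other 11 H4 genes 8 to 10. Among 14924 protein-coding genes of the table, 1.99% had 20 bases with at least 18 A in the last 400 bases of their longest coding transcript. Whether the oligo-dT primer annealed at this stretch was not tested.

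H4C3, which encodes histone H4, held most of the histone reads in most cells. It was detected, meaning that at least 1 read was counted, in 36 of 37 CTCs and in 6 of 6 cultured cells. It made up over 50% of the summed level of the 52 genes in 30 of 37 CTCs and in all 6 cultured cells, with a median share of 85.2% in CTCs and 85.2% in the culture. In mouse 5541 H4C3 was at 15.2 and 31.4 normalized counts. In mouse 5542 it was at 79.2, 202, 2627 and 3749. In mouse 5549 it was at 57.6, 3022, 3164 and 3601. Cells of the same mouse thus lay far apart, with no overlap between the CTCs of mouse 5541 and those of mouse 5542. Among the 10 CTCs of mouse 5545, H4C3 ranged from 0 to 4216 with a median of 512. Among the 17 CTCs of mouse 5546 it ranged from 50.5 to 4745 with a median of 302. The 6 cultured cells were at 134, 709, 1147, 1827, 1936 and 4438, inside the range of the CTCs. The only CTC with no H4C3 read was 5545-6, in which 2313 genes were detected, the fewest of any CTC. None of the 50-base stretches of H4C3 is shared with another histone gene of the human annotation. Reads that span such a stretch can thus be told from those of the other human histone genes. Mouse genes were not compared.

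**Figure D1:**
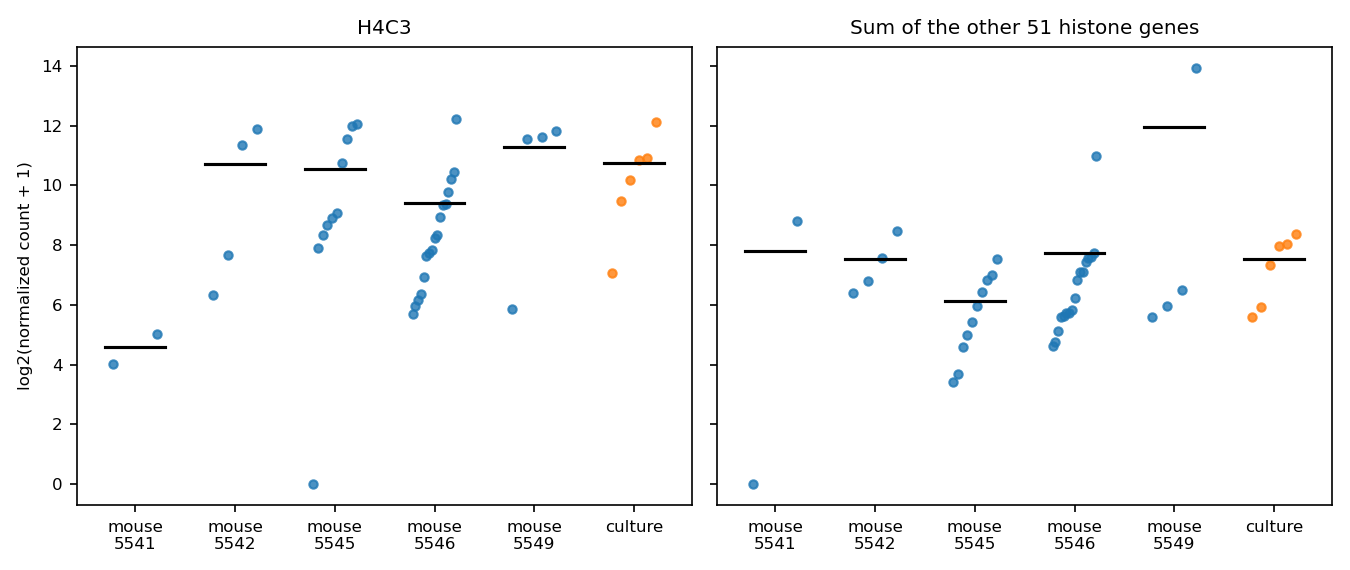
Level of H4C3 (left) and of the sum of the other 51 histone genes (right) in each cell, as log2(normalized count + 1); points are cells, sorted by level within a group, and black lines are group means (blue, CTCs by mouse; orange, culture). H4C3 spread widely within mice 5542, 5545, 5546 and 5549, while the sum of the other genes was over 1000 in 2 CTCs, of which 5549-6 was at 15615.

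The mean of the 5 mouse means of H4C3 was 1267 ± 938 normalized counts (SD, n = 5 mice), and the culture mean was 1698. The log2 ratio of CTCs to culture was -0.42 with 1 added to both means, and it was -0.48 without 5549-6. The SD of the log2 ratio over mice was 2.72, so that the difference was smaller than the spread between mice. The 9164 genes whose mean of mouse means or culture mean reached 8 had a median log2 ratio of -1.20 on the same scale. In the test on summed reads (edgeR's quasi-likelihood test with Benjamini-Hochberg adjustment) H4C3 had a log2 ratio of 1.06 ± 1.44 (SE) and an adjusted p of 1.0. This ratio has the other sign from that of the means. The means use the authors' size factors and average cells, while edgeR scaled the summed reads anew. The part of these differences in the change of sign was not tested. The median log2 ratio of all 13813 genes in that fit was 0.31. Without 5549-6 the edgeR log2 ratio of H4C3 was 1.11 ± 1.45 (SE).

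The summed level of the other 51 genes was low in most CTCs. Its median over CTCs was 83.9 normalized counts, and the cultured cells ranged from 47.7 to 333 with a median of 203. In CTCs it ran from 0 in 5541-5 to 15615 in 5549-6, and the next highest value was 1998 in 5546-c8. Only 4 of 37 CTCs were above the highest cultured cell. The mean of mouse means was 928 ± 1692 (SD, n = 5 mice), and without 5549-6 it was 150 ± 77.1, against 185 in the culture. The log2 ratio of the other 51 genes to culture was accordingly 2.32 with 5549-6 and -0.30 without it.

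The number of histone genes detected per CTC ranged from 1 to 31 with a median of 11, and in the 6 cultured cells from 6 to 21 with a median of 13.5. Reads per CTC ranged from 469614 to 2041333 and reads per cultured cell from 776949 to 1186197. After each cell was thinned to 469614 reads the medians were 9 in CTCs and 11.5 in the culture, and 5549-6 kept 31 genes. Across CTCs 51 of the 52 genes were detected at least once, 8 of them in over 50% of the CTCs and 11 in all 5 mice. Of the 52 genes 15 were detected in 3 CTCs or fewer. Each of the 25739 rows of the table holds at least 1 read over the CTCs and the culture. Detection of the 52 genes in some cell was thus fixed by the choice of rows. In the culture 30 genes were detected. Reads of 22 genes were found in CTCs and in 0 of 6 cultured cells, a count of 0 that still allows a share of up to 50% of cells. With 37 CTCs against 6 cultured cells, genes with few reads are more easily seen in CTCs. The share of all genes seen only in CTCs is not given here. The 22 are therefore not read as a trait of histone genes. H4C1 was the only gene found in the culture, in 2 of 6 cells, and in 0 of 37 CTCs, which allows up to 8.11%. These limits cover counting error only and take cells as independent draws, which cells of 1 culture or 1 mouse need not be.

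**Figure D2:**
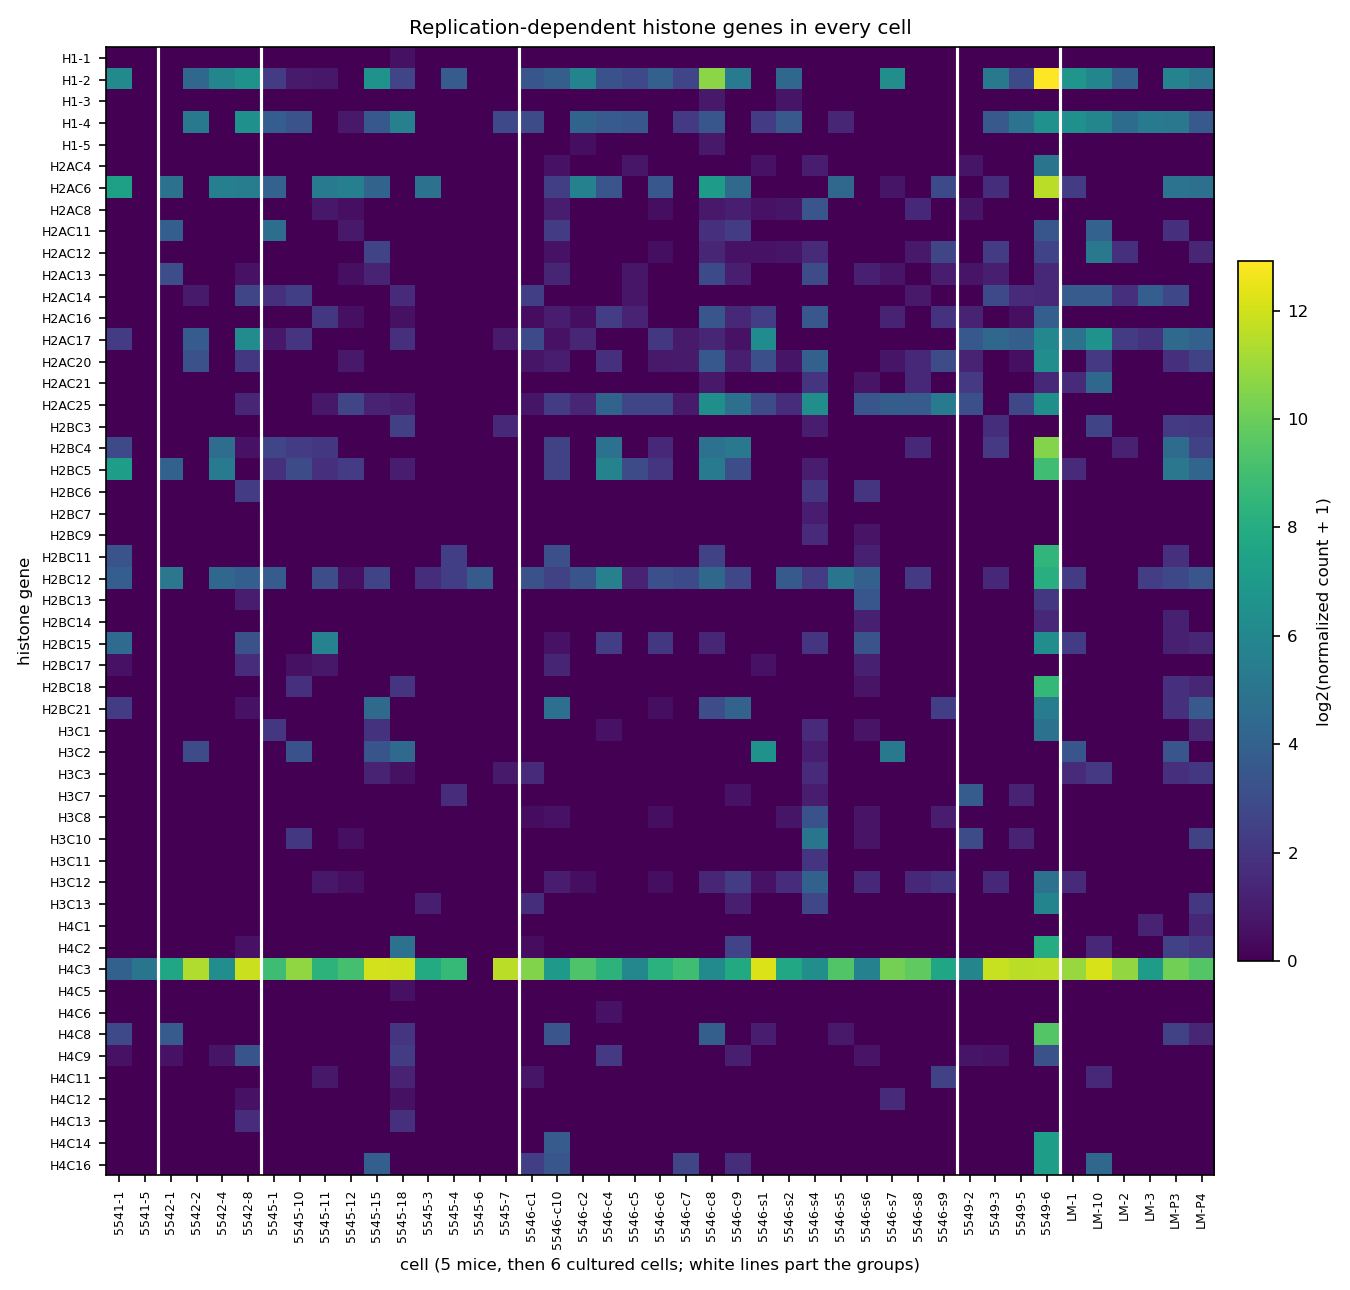
Level of each of the 52 histone genes (rows) in each of the 43 cells (columns, CTCs by mouse and then the culture), as log2(normalized count + 1). The H4C3 row is bright in nearly all cells, and the column of 5549-6 holds reads of 31 genes, with H1-2 brightest.

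Linker histones, which bind the DNA between nucleosomes, were mainly seen as H1-2 and H1-4. H1-2 was detected in 24 of 37 CTCs of all 5 mice and in 5 of 6 cultured cells. Its levels in CTCs ran from 0 through a median of 6.30 to 7697 in 5549-6, and the second highest value was 1611 in 5546-c8. Every other CTC was below 100, and the cultured cells ranged from 0 to 105. The mouse means were 36.3 in 5541, 43.9 in 5542, 11.9 in 5545, 110 in 5546 and 1935 in 5549, against a culture mean of 44.6. Without 5549-6 the log2 ratio of H1-2 to culture fell from 3.23 to -0.05. H1-4 was detected in 20 CTCs of 4 mice and in all 6 cultured cells, at 0 to 91.6 with a median of 1.64 in CTCs and at 11.3 to 87.5 in the culture. Its mean of mouse means was 15.5 ± 15.5 (SD, n = 5 mice) against 42.4 in the culture, a log2 ratio of -1.40. This is near the median of -1.20 of the 9164 genes whose mean of mouse means or culture mean reached 8. The ranges of H1-4 overlapped. H1-1, H1-3 and H1-5 were each at 1 or 2 CTCs and below 1 normalized count.

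Among the H2A genes, which encode a core histone of the nucleosome, H2AC6 was the highest per kilobase over all CTCs. Without 5549-6 H2AC17 was above it, at 18.1 against 16.8 per kilobase, and in the culture they were at 57.1 and 5.94. H2AC6 was detected in 20 of 37 CTCs of all 5 mice and in 3 of 6 cultured cells. CTC levels ran from 0 through a median of 2.24 to 3007 in 5549-6, followed by 160 in 5541-1 and 141 in 5546-c8, and the highest cultured cell was at 29.7. The mouse means of H2AC6 were 80.2, 29.6, 14.5, 15.4 and 752 in mice 5541, 5542, 5545, 5546 and 5549, all above the culture mean of 9.91. The log2 ratio of H2AC6 to culture was 4.04, and 1.41 without 5549-6. In edgeR its log2 ratio was 4.45 ± 2.06 (SE), with an unadjusted p of 0.0517 and an adjusted p of 1.0, so that it did not pass the test. H2AC17 had reads in 19 CTCs and all 6 cultured cells, with a mean of mouse means of 11.3 ± 12.2 (SD, n = 5 mice) and a culture mean of 27.8. H2AC14 had reads in 11 CTCs and in 5 cultured cells, at means of 1.04 and 7.69. H2AC17 and H2AC14 share 67.8% and 66.3% of their 50-base stretches with other histone genes, so their counts are uncertain, and the exon of H2AC17 also overlaps that of H3C12 on the same strand. H2AC25 was singled out after its values were seen. It was found in 24 CTCs of 4 mice and in 0 of 6 cultured cells, and was at 86.6 in 5549-6, 84.9 in 5546-c8 and 83.2 in 5546-s4. Its mean was at least 11.8-fold higher than the culture against a floor of 3 reads over the 6 cultured cells, and at least 6.37-fold higher without 5549-6. The fold rests on a pair of mice, since the mouse means of H2AC25 were 0 in 5541, 0.405 in 5542, 0.858 in 5545, 18.3 in 5546 and 25.2 in 5549, and the floor is 0.761.

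The H2B genes, whose products pair with H2A, were led by H2BC5 and H2BC12 per kilobase of exon. H2BC12 was the second most often detected histone gene, in 27 of 37 CTCs of all 5 mice and in 4 of 6 cultured cells. Its CTC median was 5.36 and its highest value 278 in 5549-6, followed by 47.5 in 5546-c4, while the highest cultured cell was at 9.68. H2BC12 shares 57.2% of its 50-base stretches with other histone genes. H2BC5 was detected in 16 CTCs, at 501 in 5549-6, 146 in 5541-1 and below 60 elsewhere, and in 3 cultured cells at up to 33.2. The mean of mouse means of H2BC5 was 44.1 ± 53.8 (SD, n = 5 mice) against 8.83 in the culture, and without 5549-6 it was 19.0, a log2 ratio of 1.02 in place of 2.20. H2BC4 and H2BC11 were carried by 1 cell. H2BC4 was at 1474 in 5549-6 and at most 35.3 in any other CTC, and H2BC11 was at 363 in 5549-6 and at most 9.0 in any other CTC. The exons of H2BC4 overlap HFE and an unnamed gene on the opposite strand. Because strand was ignored in the counting, reads of these genes cannot be told apart there.

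The H3 genes were the lowest family. Their summed level had a mean of mouse means of 11.0 ± 14.0 (SD, n = 5 mice), or 5.71 ± 5.29 without 5549-6, against 7.03 in the culture, a difference smaller than the spread between mice. The highest CTC apart from 5549-6 was 5546-s1 at 94.0, of which 93.5 came from H3C2. Apart from H4C3 the H4 genes were also low. H4C2 was at 258 in 5549-6 and 26.9 in 5545-18, and at or below 5.05 elsewhere, and the cultured cells reached 4.75. H4C8 was at 713 in 5549-6 and at most 13.9 in any other CTC. Over all CTCs the H4 genes took 81.0% of the histone reads, H1 genes 9.37%, H2A genes 4.99%, H2B genes 3.98% and H3 genes 0.632%. Without 5549-6 these shares were 89.3% for H4, 4.72% for H1, 3.17% for H2A, 2.15% for H2B and 0.636% for H3, so that this 1 cell moved the H1, H2A and H2B shares by over 1.5 times.

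Per kilobase of exon the order of the 10 highest genes by the mean of mouse means was H4C3 (3128 normalized counts per kilobase), H1-2 (584.5), H2AC6 (107), H2BC5 (51.2), H2BC12 (43.7), H4C2 (34.9), H2BC4 (26.8), H2AC17 (23.3), H1-4 (19.7) and H2BC11 (18.5). For the genes from H1-2 down to H2BC11 the SD over mice of each mean was above or close to the mean itself, so that neighbors in this order did not differ beyond their spread. Without 5549-6 the first 2 places were kept, H2AC6 moved to place 5 and H2BC4 and H2BC11 to places 18 and 20. In the culture the 5 highest were H4C3 (4193 per kilobase), H1-2 (61.0), H2AC17 (57.1), H1-4 (53.9) and H2AC14 (16.2).

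CTC 5549-6 stood apart from the rest. It was the highest CTC for 22 of the 52 histone genes and had 31 of them detected from 588141 reads, while the next highest number was 25 in 5546-s4. Its histone reads were 1.92% of all its reads. H1-2 was 41.0% of its histone level, H4C3 16.9%, H2AC6 16% and H2BC4 7.85%. In 5546-c8 H1-2 was 77.9% of the histone level, and H4C3 was at 70.2. The S-phase genes, a list of 35 genes for DNA synthesis, summed to 25.0 in 5549-6, the second lowest of the 37 CTCs, and their median over CTCs was 1214. Of the erythroid markers, genes of red blood cells and their precursors, 5 of 7 had reads in 5549-6 and summed to 15571, the highest of the CTCs, and in 5546-c8 6 of 7 summed to 5120, the second highest. The range over all CTCs was 0 to 15571 and all cultured cells were at 0. In 5549-6 HBB was at 12140, HBD at 3049, ALAS2 at 291, HBA2 at 79.9 and AHSP at 13.3, while SLC4A1 and CA1 were at 0. Of 7 leukocyte markers 5 had reads in 5549-6, summing to 728, the second highest of the CTCs, with S100A9 at 568, LYZ at 128, PTPRC at 20 and MS4A1 and ITGAM at 0. No platelet marker had a read there. The LM2 markers were lowest in 5549-6 of all CTCs, at 6926 with 8 of 10 genes detected and FN1 and SPARC at 0. The next lowest CTC, 5546-s9, was close to it at 6940. In 5549-6 KRT18 was at 1417, above its mean of mouse means of 895. VIM was at 4195 there, below its mean of 8972, and every other LM2 marker was also below its own mean. The blood was that of mice while the rows of the table are human genes, and how far mouse reads aligned to them was not tested. The part of the S-phase, blood cell and LM2 markers in the histone level of 5549-6 was not tested. Values without this cell are given beside the main ones below.

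The genes with high levels in 5549-6 were often those whose annotation runs past the stem-loop. In the GENCODE 44 models 13 of the 52 genes have more than 100 exon bases beyond the stem-loop, 38 do not, and H2AC11 had no stem-loop match. Of the 13 genes with such exons 11 were detected in 5549-6 and 8 were at 100 normalized counts or more there, namely H2AC6, H2BC4, H4C8, H2BC5, H2BC18, H2BC11, H4C14 and H4C16. Of the 37 genes without such exons, H4C3 left aside, 18 were detected and 3 were at 100 or more, namely H1-2, H2BC12 and H4C2. The summed level of the 13 genes was 6956 in 5549-6. It had a median of 21.7 over the other CTCs with a highest value of 354 in 5541-1, and ranged from 0 to 98.5 in the culture. The 37 genes without such exons summed to more in 5549-6, at 8649, of which H1-2 alone was 7697. Their median over the other CTCs was 38.9 with a highest value of 1675 in 5546-c8, and the culture ranged from 46.4 to 298. A count over a longer exon model also takes in more positions. Several of these counts are uncertain. H4C14 shares all of its 50-base stretches with another histone gene, and H2BC18 shares 33.9%. The exons of H2AC6 overlap an unnamed gene on the same strand, and those of H4C8 and H2BC18 overlap an unnamed gene and FCGR1A on the opposite strand, as those of H2BC4 overlap HFE. The cell and the class were both described after their values were seen, and no test was made.

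**Figure D3:**
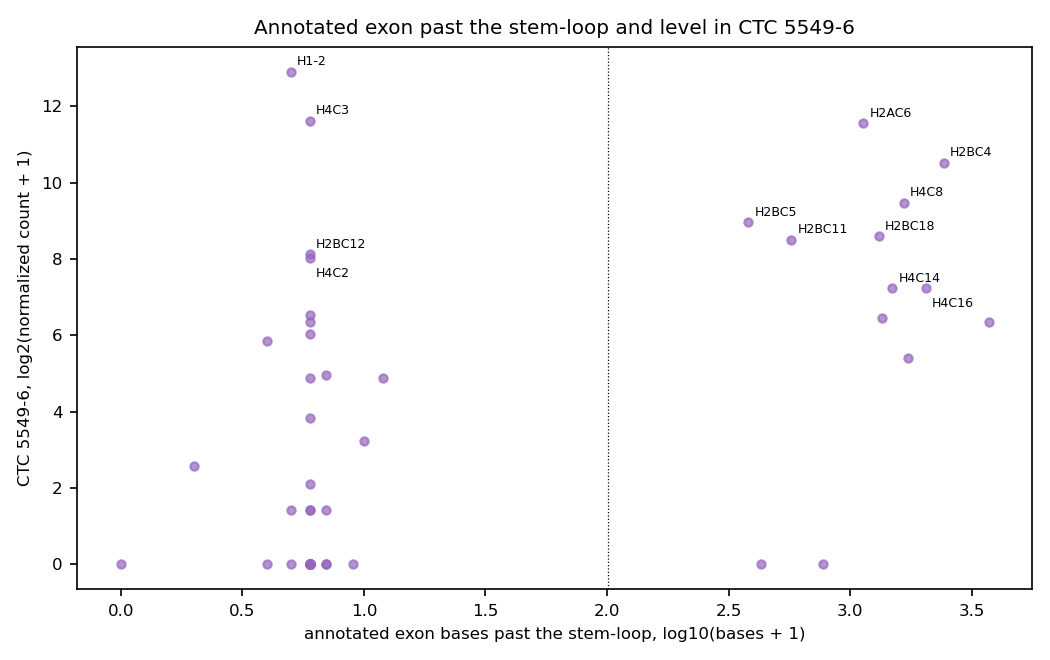
Annotated exon bases beyond the stem-loop, as log10(bases + 1), against the level in CTC 5549-6, as log2(normalized count + 1), for 51 histone genes; the dotted line marks 100 bases, and genes above 100 normalized counts are named. Of the genes right of the line 8 of 13 are at 100 or more, and left of it H1-2 and H4C3 are the highest.

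H1-2, the highest of the genes with no annotated exon past the stem-loop in 5549-6, is encoded by 1 exon at chr6:26055740-26056470 on the minus strand. The 150 bases before its start, chr6:26056471-26056620 on the minus strand of GRCh38.p14 (RefSeq promoter table), are shown with an AAACACA element, a CCAAT box and a TATATATA run in capitals.
H1-2: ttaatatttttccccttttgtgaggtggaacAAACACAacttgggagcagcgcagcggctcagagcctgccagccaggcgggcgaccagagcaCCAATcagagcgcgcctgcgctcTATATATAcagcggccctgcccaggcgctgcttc
AAACACA, a motif of H1 promoters, was searched on both strands of the 250 bases upstream of each start. It was found in 5 of 5 H1 genes and in 4.82% of 35116 promoters of the same length. Of the 52 genes 49 had a promoter in the table. CCAAT was found in 42 of these (85.7%), against 32.0% of all promoters, and TATAA in 46 (93.9%), against 18.9%. Of the 5 H1 genes 5 had CCAAT and 4 had TATAA. The TATATATA run marked above does not hold TATAA and is no match to it. The letters of the 3 motifs do not contain one another. A match is a description and shows no binding.

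The histone genes as a set were compared between CTCs and culture by a rule of size, with no test. It asked that all 5 mouse means lie on the same side of the culture mean, each by a factor of 4 or more with 1 added to both, and that the larger mean reach 8. By this rule 0 of 52 histone genes were higher and 0 of 52 were lower in CTCs. Over all 25739 genes 6 were higher (0.0233%) and 487 were lower (1.89%), so that about 1 gene of 52 would be lower at the rate of the table, and the count of 0 is near that background. With 2-fold in place of 4-fold the histone counts were again 0, while 0.0932% of all genes were higher and 8.93% lower. Without 5549-6 the counts were also 0 at both folds. The median log2 ratio of the 52 genes was 0.31, against -0.03 for all genes, and without 5549-6 it was 0.02, against -0.11. For the 14 histone genes whose larger mean reached 8 it was 2.85, against -1.20 for the 9164 such genes. With the same genes kept and 5549-6 left out of the means, these medians were -0.21 and -1.23. The choice of the 14 leans on that cell, since the mean of mouse means reached 8 in 14 histone genes with it and in 6 without it. Neither median of the 14 is therefore read as a trait of histone genes. In 5 of 5 mice 4 of 52 histone genes had means above the culture mean, against 0.901% of all genes, and 8 had means below it, against 34.0%. Without 5549-6 these counts were 1 (0.831% of all genes) and 12 (35.3%).

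**Figure D4:**
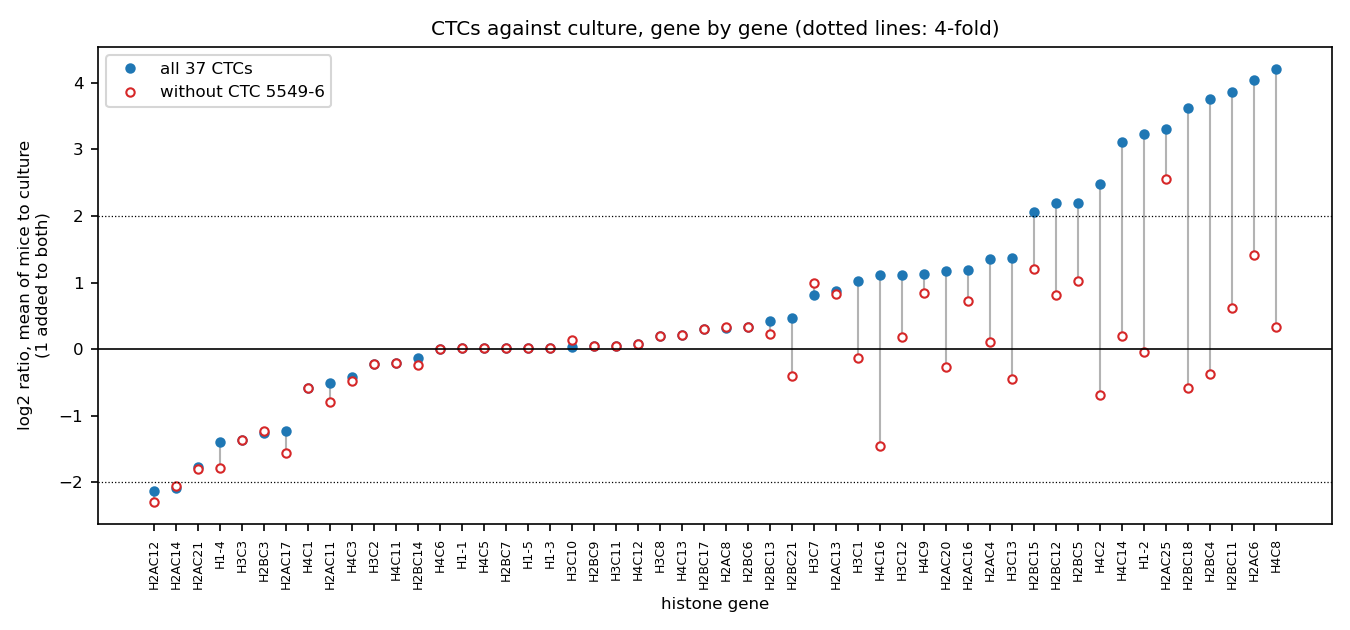
Log2 ratio of the mean of mouse means to the culture mean, with 1 added to both, for each of the 52 histone genes with all 37 CTCs (filled) and without CTC 5549-6 (open); dotted lines mark 4-fold. Removal of this 1 cell moves H1-2 from 3.23 to -0.05 and leaves H4C3 between -0.42 and -0.48.

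A count test was added, with reads summed within each mouse and within the culture, in which the single culture sample is taken to vary like the mice. Of the 52 histone genes 32 passed the filter on low counts. In edgeR 0 of them were called at an adjusted p of 0.05, and 0 of all 13813 genes were called (0.0%). At an unadjusted p under 0.05 were 0 histone genes and 241 of the 13813 genes. DESeq2 called 14 genes of the whole table (0.0544%), 0 of them histone genes, and 5 of 52 histone genes had an unadjusted p under 0.05, against 1.45% of all genes. Without 5549-6 edgeR called 0 of 13528 genes, and 0 of the 27 histone genes tested had an unadjusted p under 0.05. With 1 culture sample the test has little room, and a p that misses the threshold does not show that levels were alike.

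Genes that work with the histone messages were given by lists. Over all 25739 genes 0.0233% were higher and 1.89% lower by the rule of size, shares that also count genes too low to meet it. Of the 19 histone mRNA factors, which transcribe or process these messages, 0 were higher and 2 were lower in CTCs by the rule of size. These were NCBP2, a subunit of the cap-binding complex, at 38.5 ± 15.4 (SD, n = 5 mice) against 258 in the culture, and CSTF2, a cleavage stimulation factor, at 21.7 ± 6.17 against 133. SLBP itself had a mean of mouse means of 108 ± 33.0 against 263, a log2 ratio of -1.27, and did not meet the rule. Of the 9 decay factors of histone mRNA 0 met the rule. Of the 19 histone chaperones, which carry histones to DNA, 2 were lower, namely MCM2 (4.59 ± 4.11 against 77.2) and RBBP7 (67.3 ± 24.7 against 405). The median log2 ratios were -1.60 for the factors, -0.31 for the decay factors and -1.94 for the chaperones, and without 5549-6 they were -1.71, -0.68 and -1.84. All genes had a median of -0.03, and the 9164 genes whose larger mean reached 8 had a median of -1.20, with 85.3% of them below 0. The same genes of these lists met the rule without 5549-6.

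The lists of the cell cycle also held genes that were lower in CTCs. For comparison, 1.89% of all 25739 genes were lower by the rule, a share that also counts genes too low to meet it. The 9164 genes whose larger mean reached 8 had a median log2 ratio of -1.20, with 85.3% of them below 0. Of 35 S-phase genes 6 were lower and 0 higher, with a median log2 ratio of -2.30, and without 5549-6 these were 4 genes and -2.23. Among those that met the rule, the largest differences were in MCM2, a subunit of the replicative helicase, GINS3, a helicase cofactor (2.17 ± 2.03 against 37.9, n = 5 mice), and CCNE2, a cyclin of S-phase entry (1.85 ± 1.75 against 25.5). Of 22 genes of G2 and mitosis 4 were lower, with a median of -2.40, and without 5549-6 5 were lower, with a median of -2.45. They were led by KIF20A, a mitotic kinesin (7.86 ± 10.5 against 251.5), BUB1, a spindle checkpoint kinase (6.01 ± 5.62 against 104), and AURKA, a mitotic kinase (37.4 ± 32.1 against 551). Of 11 genes of G1 arrest 0 met the rule. Of 10 genes of the nuclear poly(A) machinery 1 was lower, PAPOLG, a poly(A) polymerase, at 1.36 ± 1.26 against 19.0. The 12 replication-independent histone genes, whose messages carry poly(A) tails, were much more abundant, with a median sum of 5965 in CTCs and of 9385 in the culture. Only CENPA, the centromeric H3, met the rule, at 6.19 ± 7.33 against 76.8. H3-3B was at 3214 ± 646 against 3902, and H2AZ1 at 1967 ± 882 against 4059. Of the 7 erythroid markers 2 were higher, HBB and HBD, while 0 of 7 leukocyte markers, 0 of 6 platelet markers and 0 of 10 LM2 markers met the rule. In edgeR 0 genes of these lists were called.

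Across the 37 CTCs the level of H4C3 was higher where cell cycle genes were higher, and the sum of the other 51 genes showed little relation to the S-phase genes. These relations are descriptions over cells of 5 mice, which share mouse, depth and normalization, and carry no test. Between H4C3 and the summed S-phase genes Spearman's rho was 0.54 and Pearson's r of log2(value + 1) was 0.43, and r was 0.63 without the 2 CTCs farthest from the median of the S-phase sum. Without 5549-6 rho was 0.63. Within mouse 5545 (10 CTCs) rho was 0.68, and within mouse 5546 (17 CTCs) it was 0.49. Between H4C3 and the genes of G2 and mitosis rho was 0.53 over 37 CTCs, 0.58 without 5549-6, 0.65 within mouse 5545 and 0.28 within mouse 5546. With the number of genes detected rho of H4C3 was -0.03, and with reads it was -0.05, and both were 0.01 without 5549-6. H1-4 had a rho of 0.64 with H4C3 over 37 CTCs and of 0.44 with the S-phase sum, or 0.62 and 0.56 without 5549-6, but within mouse 5546 these were 0.11 and 0.00. For the sum of the other 51 genes rho with the S-phase genes was -0.10, and -0.03 without 5549-6, 0.32 within mouse 5545 and -0.39 within mouse 5546. Its rho with the erythroid markers was 0.44 over 37 CTCs, 0.39 without 5549-6, 0.81 within mouse 5545 and 0.17 within mouse 5546. With the leukocyte markers it was 0.35, 0.29, 0.59 and 0.53 in the same order.

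**Figure D5:**
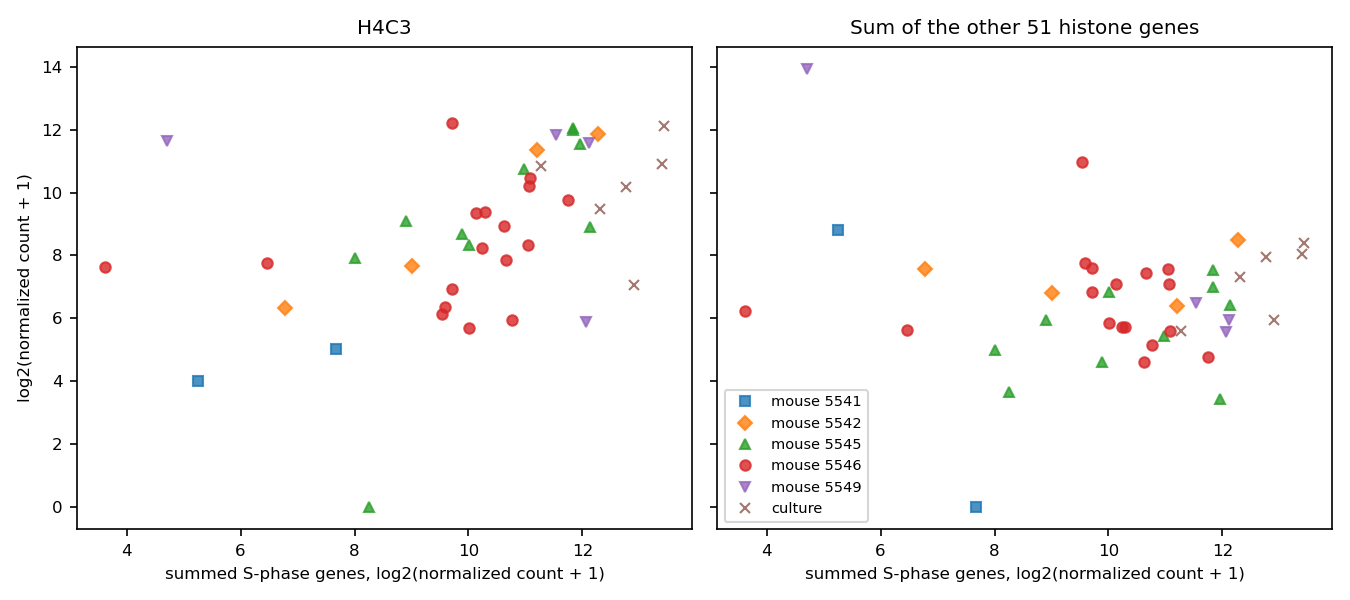
Level of H4C3 (left) and of the sum of the other 51 histone genes (right) against the summed level of 35 S-phase genes in each cell, all as log2(normalized count + 1); symbols mark mice and crosses the culture. H4C3 tends to be higher where the S-phase sum is higher (rho 0.54 over 37 CTCs), and 5549-6 lies at the upper left of both panels with an S-phase sum of 25.0.

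Over the 52 genes the highest number of A in any 20 bases had a rho of 0.24 with the number of CTCs in which a gene was detected and of 0.10 with the CTC mean per kilobase. These values are across genes, which are not independent replicates, and H4C3 is the only gene above 13. Of the 52 genes 8 share over 50% of their 50-base stretches with other histone genes. Since only uniquely mapped reads were kept, the counts of such genes are uncertain.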

How the data were processed

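Single-cell SMARTseq2 values of 37 CTCs and 6 cultured LM2 cells were used. Gene reads scaled by one size factor per cell form the deposited signal table. Per the labels the authors used STAR 2.7.10a, GRCh38 and DESeq2 1.42.1, with GENCODE 38, kept uniquely mapped reads and ignored strand. Annotation here was GENCODE 44, whose exons may differ. Division by the smallest nonzero value of a cell gave whole reads for 100% of the values (tolerance 0.001). There are no molecular identifiers.

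Mouse means were compared with the culture by the rule of size, and summed reads by edgeR 4.0.16 (TMM, filterByExpr, quasi-likelihood) with DESeq2 1.42.0 as an alternative (R 4.3.3). Scripts ran in Python 3.11.15 and were tested on simulated data. The histone genes and lists were chosen with earlier results of these data known. Named are the 10 highest genes per kilobase in CTCs, the 5 highest in culture and up to 3 genes per list that met the rule. Other histone genes with values were chosen after their values were seen. Alternatives were other pseudocounts, folds and minimum means, medians, thinning, other scalings, and leaving out mice, cultured cells or libraries by letter. The letters c and s of mouse 5546 are not explained in the sources used here. In the labels 4 further CTC libraries are given as left out of the processed data.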

Additional observations from a re-analysis of the deposited data

Results flagged for a closer look

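Single samples lay far from the others of their group in 6 of 20 sets of values examined. A rate of about 1 in 20 by chance would need independent sets of evenly spread values. These sets hold skewed counts and overlap, and several of the 6 rest on the same cell, 5549-6, so that no excess over chance is claimed. Among the 4 CTCs of mouse 5549, 5549-6 was far above the rest in the sum of the 51 histone genes other than H4C3, at 15610 with the next at 89.2, and in histone genes detected, at 31 with the next at 13. The mean of mouse 5549 was in turn far above the other 4 mouse means in the summed level of the 52 genes, at 6414 with the next at 1849, and in that of the 51 genes, at 3953 with the next at 223. In the same mouse 5549-2 was far below the other CTCs in H4C3, at 57.6 with the next at 3022, although its S-phase genes summed to 4284. Among the 4 CTCs of mouse 5542, 5542-8 had 20 histone genes detected, with the next at 8.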

How the results depend on the processing

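The counts of 0 histone genes by the rule of size and by edgeR stayed at 0 under every alternative run, which were 21 for the rule of size and 17 for edgeR. The log2 ratio of the summed histone level to culture was 0.22 and did not keep its sign. It was 2.32 without H4C3, -0.39 with medians and 0.94 with depth-scaled reads, and the following 3 settings were added after the data were seen. It was -0.46 without 5549-6, -0.42 for H4C3 alone and -0.30 without both. Leaving out mice gave -0.72 (without mouse 5549) to 0.51, and leaving out cultured cells -0.02 (without LM-3) to 0.75. The summed level in CTCs was 2194 and ranged from 1140 to 2682 when mice were left out, with 1140 without mouse 5549. It was 1248 with medians, 1370 without 5549-6, 928 without H4C3 and 150 without both. The median of 11 histone genes detected per CTC was 4 at a minimum of 8 normalized counts, and 9 to 12 under the other alternatives. Without the filter edgeR called 27 genes of 25739, 0 of them histone genes. The rule of size called 144 to 2375 genes lower over its alternatives, against 487. No paired analysis was possible because the replicate numbers only name picked cells and the culture is 1 sample. Depth limits the genes seen in 3 CTCs or fewer, whose absence elsewhere cannot be told from missed reads.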
